A study of Homo sapiens with 19 samples.

Results

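The comparison described here is the silencing of BRG1 in Hermes 3A cells, a human melanocyte line that is not transformed. Of the 19 RNA-seq samples in the series, 6 belong to it: 3 replicates infected with a lentivirus encoding shBRG1, a short hairpin RNA against the SMARCA4 transcript, and 3 replicates infected with a scramble hairpin (shSCR). The members were taken by their sample labels alone, and all genes counted in these 6 samples were examined. Another 6 samples, 501Mel melanoma cells with shBRG1 or shSCR1, serve only to show where the melanocyte response differs. Neither of these Hermes 3A groups carries any other genetic change by its label. A further 3 Hermes 3A samples, with a hairpin against MITF (shMITF), enter only an alternative fit of all 3 groups. Both groups compared here were grown in the same medium with TPA, cholera toxin, stem cell factor and endothelin-1, which drive melanocyte growth and pigmentation. BRG1 was targeted with 1 hairpin, so that effects of that hairpin on other transcripts cannot be told apart from effects of losing BRG1. The labels do not say whether replicates came from separate cultures, and p-values therefore measure the spread between these samples, which may be technical.

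BRG1, the product of SMARCA4, is an ATPase that drives the BAF and PBAF complexes, which slide or evict nucleosomes and so open or close stretches of chromatin to transcription factors. SMARCA2 (BRM) is the alternative ATPase of the BAF complex. In melanocytes MITF and SOX10 are the factors that keep up the genes for melanin synthesis and for melanosomes, the organelles in which melanin is made and from which it is passed to neighbouring cells.

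SMARCA4, at chr19:10960825-11079426 on the + strand of GRCh38, was read first as a check of the labels. It stood at 218, 231 and 204 CPM (normalised counts scaled to a library of 1000000) in the 3 shSCR samples and at 40.0, 41.9 and 43.4 CPM in the 3 shBRG1 samples. The groups did not overlap, and 19.2% of the transcript was left (log2 fold change -2.38 ± 0.05, SE from the fit, n = 3 per group throughout). Its paralog SMARCA2 went from a mean of 69.4 to 64.3 CPM (-0.11 ± 0.04 on the log2 scale, adjusted p = 0.0315), a small difference that no longer passed without shBRG1 replicate 2 or 3, without shSCR replicate 1, without a filter on low counts or with library sizes (-0.01). Of 27 subunits of the BAF and PBAF complexes, 9 rose and 10 fell. SMARCA4 itself was the one changed more than 2-fold, or 1 of 2 without shBRG1 replicate 2 or 3 or without shSCR replicate 1. PBRM1, the bromodomain subunit that marks PBAF, fell by 0.76 on the log2 scale, and SS18, a subunit of BAF, rose by 0.57. In the fit of all 3 groups, 3 of 28 subunits rose and 5 fell. There SMARCA2 did not pass. With library sizes in place of TMM factors, 12 of 27 subunits rose and 6 fell.

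Each shSCR sample held between 39036855 and 50738611 counts and each shBRG1 sample between 45326473 and 61804675. After a filter on low counts 17222 genes were tested. A gene is said to have risen or fallen where its adjusted p was under 0.05, and to have been up- or down-regulated (called) where it also changed more than 2-fold. 996 genes were up-regulated, 5.78% of those tested, and 598 were down-regulated, 3.47%. The replicates were close, with a biological coefficient of variation of 5.75%, and by the adjusted p alone 28.2% of genes rose and 28.6% fell, so that many small changes passed the test. These shares, and the 5.78% and 3.47% called, are the background for every list below. A count near them shows nothing particular to its list. The median log2 fold change over all genes tested was 0.01. With library sizes in place of TMM factors that median became 0.11, and each value given here then lies higher by about that difference. The 3 shBRG1 replicates were not equally alike: replicate 2 differed from both others more than those differed from each other. Where a count below moves by over 1.5 times when a single sample is left out, the value without it is given. The same holds for the fit of all 3 groups, in which the shMITF samples, with a coefficient of variation of 28.8% against 5.49% and 5.89% for shSCR and shBRG1 on their own, raised the common estimate to 17.8%, and in which many small changes no longer passed.

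Among the up-regulated genes 726 were protein coding and 169 were long intergenic or antisense RNAs in GENCODE, and among the down-regulated genes these were 479 and 69. Many of the called genes were weakly expressed. A mean of under 100 counts in the group where they were higher was found for 534 of the up-regulated and 268 of the down-regulated genes. A mean of at least 1000 counts was found for 177 and 180 of them. Changes beyond 8-fold were made by 41 up-regulated and 25 down-regulated genes.

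**Figure D1:**
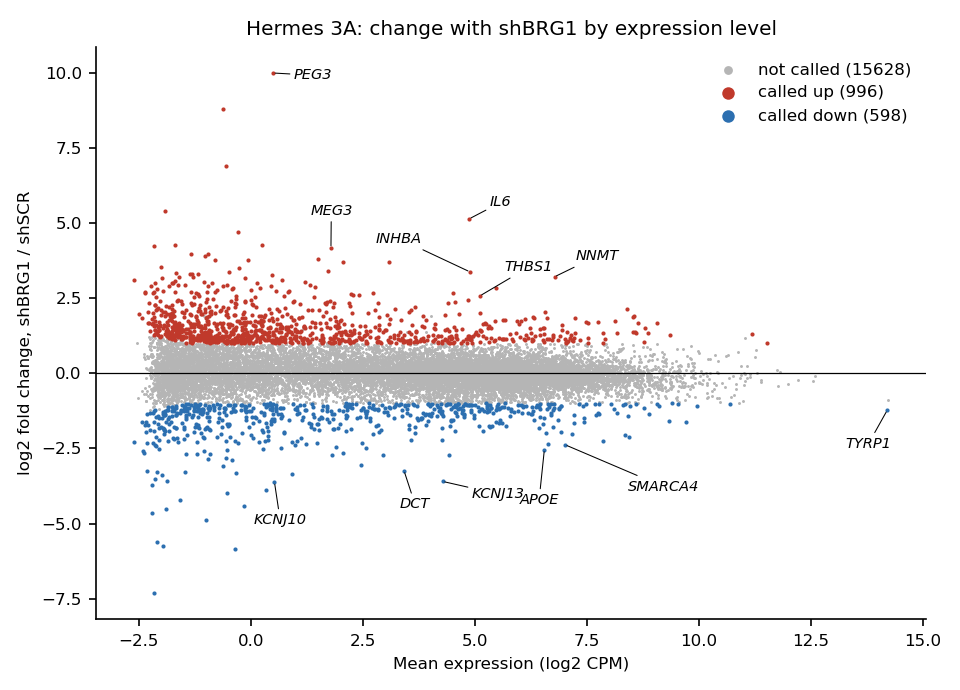
Each point is one of the 17222 genes tested in Hermes 3A cells, with its mean expression in log2 CPM on the horizontal axis and its log2 fold change (shBRG1 over shSCR) on the vertical axis. Red points were called up (996) and blue points called down (598), and the labelled PEG3 had no count in any shSCR sample, so that its fitted height depends on the prior count.

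The transcripts that define melanocytes were still expressed, at levels that were lower by unequal amounts. The log2 fold changes of 10 markers ran from -3.24 to -0.40, with a median of -0.90. Their sum weighs the most abundant of them most. The summed level of 10 melanocyte markers (PMEL, MLANA, TYR, TYRP1, DCT, MITF, SOX10, GPR143, SLC45A2 and SLC24A5) lay between 55586 and 56645 CPM with shSCR and between 29448 and 30315 with shBRG1, and all 10 fell. These sums and those of the other markers below were scaled to library sizes alone, unlike the CPM of single genes. The TMM factors, 0.9623 to 0.9668 for shSCR and 1.0312 to 1.0445 for shBRG1, would raise the shSCR sums and lower the shBRG1 sums. Fewer cells of a type and less RNA per cell cannot be told apart in bulk RNA. Markers of other cell types were far lower. The 12 keratinocyte markers summed to 28.6 to 30.7 CPM with shSCR and 27.2 to 28.5 with shBRG1, and the 10 leukocyte markers to 0.729 to 1.06 and 0.599 to 0.905, with CD3E at 0 counts in all 6 samples. The 9 endothelial markers counted summed to 16.3 to 18.6 and 13.9 to 14.9 CPM. The 12 fibroblast markers summed to 638 to 649 CPM with shSCR and 615 to 626 with shBRG1. Of the 9 fibroblast markers tested, 3 rose, PDGFRA, PDGFRB and COL1A2, and 4 fell. PDGFRB no longer passed without shBRG1 replicate 2 or with DESeq2. The 10 Schwann cell markers, several of which melanocytes share, summed to 2078 to 2114 with shSCR and 1565 to 1622 with shBRG1. Among them MBP, the myelin basic protein, fell by 1.59 and NGFR, the low-affinity nerve growth factor receptor, rose by 1.63 on the log2 scale. As signs of the make-up of the libraries, all 13 mitochondrially encoded genes fell, with a median of -0.33 on the log2 scale, and 34 of 40 ribosomal protein genes fell, with a median of -0.25. The part of these in the results below was not tested. With all 3 groups fitted together, 0 of 13 mitochondrially encoded genes rose and 0 fell, 0 of 40 ribosomal protein genes rose and 4 fell and 2 of 9 fibroblast markers rose and 0 fell.

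Pigment genes were lower with shBRG1, and a few of them far lower than the rest. Melanin is made from tyrosine by tyrosinase (TYR), with TYRP1 and dopachrome tautomerase (DCT) acting further along, on fibrils of the PMEL protein inside the melanosome. Of 18 genes for melanin synthesis and melanosome proteins, 15 fell and 2 rose, with a median log2 fold change of -0.82. Of them 4 were down-regulated and 2 up-regulated, 1 without shBRG1 replicate 3 or shSCR replicate 1. MITF is known to bind the motif CATGTG, and 60 bases upstream of the start sites of 3 of these genes are shown because each holds it, with the motif in capitals, on either strand, and all sequences written 5′ to 3′ along the gene. They are from RefSeq on GRCh38.p14: DCT at chr13:94479784-94479843 (- strand), TYRP1 at chr9:12693325-12693384 (+ strand) and TYR at chr11:89177815-89177874 (+ strand).
DCT: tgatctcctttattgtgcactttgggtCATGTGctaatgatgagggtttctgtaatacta
TYRP1: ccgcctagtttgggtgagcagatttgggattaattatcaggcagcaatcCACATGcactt
TYR: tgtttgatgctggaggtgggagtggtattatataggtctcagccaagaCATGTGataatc
CATGTG was found in the window from 250 bases before to 50 after the start site of 9 of the 15 genes of the list whose promoter was in the RefSeq set, and in 11.1% of all 35116 promoters. Among the 388 down-regulated genes with a promoter 14.7% held it, among the 647 up-regulated genes 11.4%, and among all genes tested 10.2%. A match is a description of the letters and says nothing of binding.

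The 3 genes shown changed by unequal amounts. DCT stood at 19.7, 18.5 and 21.0 CPM in the shSCR samples and 2.03, 2.18 and 2.03 CPM in the shBRG1 samples, a log2 fold change of -3.24 ± 0.09. TYRP1 stood at 25955, 25830.4 and 27420.2 CPM with shSCR and 11379, 11330.0 and 11092 CPM with shBRG1 (-1.23 ± 0.04), and TYR fell by 0.95. In each the 2 groups were apart. SLC45A2, a melanosomal transporter whose loss causes oculocutaneous albinism, went from a mean of 10.4 CPM to 1.84 CPM, a log2 fold change of -2.49 ± 0.11. PMEL fell by 0.88, MLANA by 0.92, GPR143, the receptor mutated in ocular albinism, by 0.75 and OCA2, a melanosomal channel protein, by 0.46. SLC7A11, the cystine transporter that feeds pheomelanin synthesis, rose by 1.03, and SLC6A17, a neutral amino acid transporter, by 1.70. When the shMITF samples shared the fit SLC7A11 did not pass.

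Genes for the building and movement of melanosomes changed less. Of 25 tested, 14 fell and 5 rose, with a median of -0.17. The small GTPases RAB32 and RAB38, which deliver pigment enzymes to the melanosome, fell by 1.08 and 1.02, and RAB27A, which ties melanosomes to the actin motor MYO5A, by 0.79. MLPH, the linker between both, rose by 0.13. Under the fit of all 3 groups, 1 of 25 genes of melanosome biogenesis and transport rose and 7 fell. There MLPH did not pass. Library sizes in place of TMM factors gave that 8 of 25 genes of melanosome biogenesis and transport rose and 12 fell.

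Most transcription factors of the lineage changed by less than the pigment genes did. MITF stood at 906, 935 and 1003 CPM with shSCR and 700.2, 695 and 712 CPM with shBRG1, a log2 fold change of -0.43 ± 0.04. SOX10 stood at 597, 639.9 and 559 and 464, 452 and 445 CPM (-0.40 ± 0.04). Both were lower in each shBRG1 sample than in any shSCR sample, at 74.1% and 75.8% of the shSCR level. PAX3, which acts upstream of MITF, did not pass the test (0.03 ± 0.04, adjusted p = 0.554). Of the 17 factors tested 6 rose and 7 fell. IRF4, which raises TYR transcription with MITF, fell by 0.66, and SOX9, a SOX10 relative of melanocyte precursors, rose by 1.17. With the shMITF samples in the fit, 1 of 17 factors rose and 3 fell. There MITF, SOX10 and SOX9 did not pass.

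Receptors and other genes typical of the lineage moved in both directions. Of 31 tested, 18 fell and 9 rose (median -0.58), and 9 were down-regulated. KIT and EDNRB, the receptors for the stem cell factor and endothelin in the medium, fell by 0.56 and 0.80. TRPM1, an ion channel of melanocytes, fell by 1.63 and S100B, a calcium-binding protein used as a melanocytic marker, by 1.04. AXL, a receptor tyrosine kinase, rose by 1.07. In the fit of all 3 groups, 3 of 31 receptors and related genes rose and 12 fell. There KIT and S100B did not pass.

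Of all genes with a mean of at least 1000 counts, a potassium channel fell furthest. KCNJ13, an inwardly rectifying channel (chr2:232766464-232776568, GRCh38), stood at 35.6, 35.2 and 38.9 CPM with shSCR and 2.90, 3.12 and 3.00 CPM with shBRG1, a log2 fold change of -3.60 ± 0.08. KCNJ10, a related channel, had 112, 111 and 151 counts with shSCR and 13, 13 and 10 counts with shBRG1 (-3.63 ± 0.25). The 2 groups of each were apart by several fold. KCNN3, a calcium-activated channel, had 15, 13 and 15 and 0, 2 and 3 counts. KCNMA1, the large-conductance calcium-activated channel, moved the other way, from 4, 1 and 2 to 19, 28 and 18 counts. Of 45 potassium channel genes listed, 23 were expressed enough to be tested, of which 5 rose, or 8 without shSCR replicate 2, and 9 fell. With all 3 groups fitted together, 4 of 23 potassium channels rose and 5 fell.

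**Figure D2:**
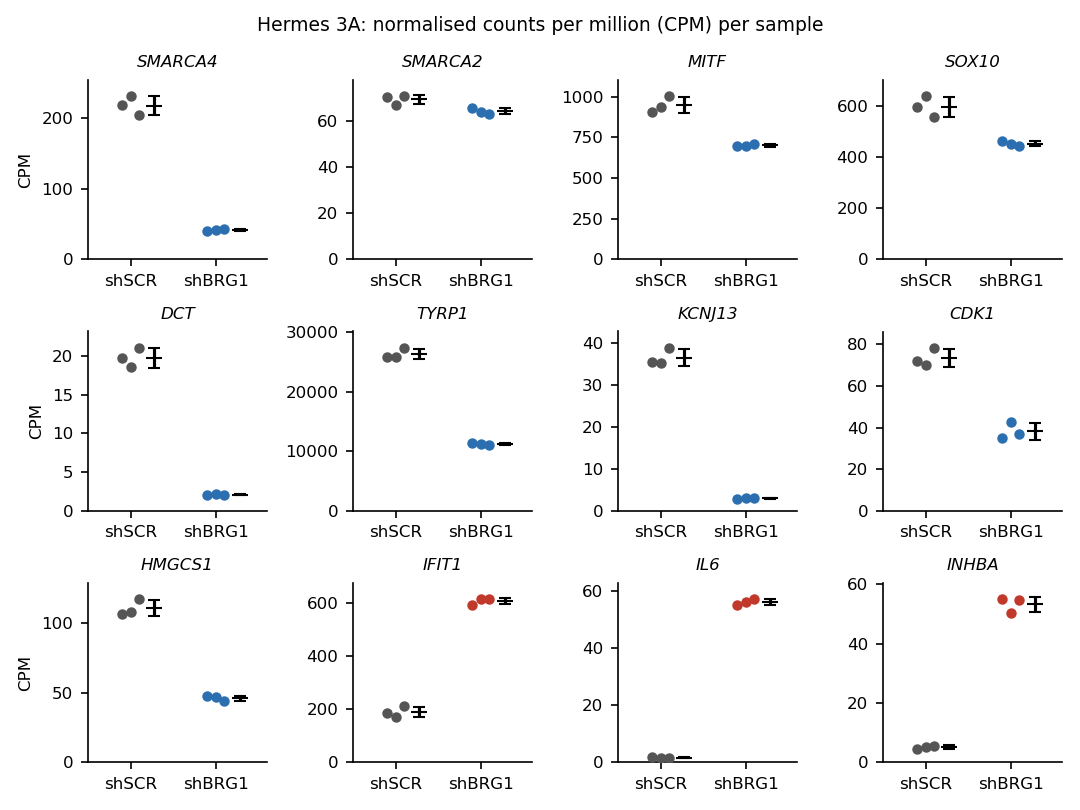
Normalised expression in CPM of 12 genes in Hermes 3A cells, a panel per gene, with one point per sample, and beside the points the mean and SD of the 3 samples. In each panel the shBRG1 points lie to one side of the shSCR points, by a few percent for SMARCA2 and by more than 10-fold for KCNJ13 and IL6.

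Genes of cell division were lower as a group and by similar amounts. All 33 genes of mitosis and the kinetochore fell, with log2 fold changes between -1.09 and -0.16 and a median of -0.83, against 0.01 over all genes. CDK1, the kinase that starts mitosis, stood at 71.8, 70.0 and 78.3 CPM with shSCR and 35.1, 42.8 and 36.7 CPM with shBRG1 (-0.94 ± 0.06). MKI67, the proliferation antigen Ki-67, stood at 164, 152 and 169 CPM and 86.3, 96.4 and 91.0 CPM (-0.83 ± 0.05), and TOP2A, the topoisomerase of dividing cells, fell by 0.86. The fall was just under 2-fold for most of them, so that 2, NUF2 and CCNA2, were called. That number was 1 without shBRG1 replicate 1, 8 without shBRG1 replicate 2 and 4 without shSCR replicate 2. With library sizes in place of TMM factors, 32 fell and none was called.

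In the same direction, 32 of 35 genes of DNA replication fell (median -0.53) and 20 of 22 genes of DNA repair fell (median -0.38). CDC6, which loads the MCM helicase on origins, fell by 1.22, MCM6, a subunit of that helicase, by 0.83, and PCNA, the sliding clamp, by 0.29. The 1 member of the replication list that rose was GINS3, a part of the active helicase, by 1.04. RAD54L and BRCA1, both acting in homologous recombination, fell by 1.05 and 0.60. Of 22 genes of G1 control 13 fell and 4 rose. CDK6 fell by 1.36, CDK4 by 0.58, CCND1 by 0.42 and E2F1 by 0.77. The inhibitor genes CDKN1A (p21) and CDKN2B (p15) rose by 0.33 and 0.25. When the shMITF samples shared the fit, 0 of 22 genes of DNA repair rose and 7 fell and 0 of 22 genes of G1 control rose and 6 fell. There CDK4, CCND1, CDKN1A and CDKN2B did not pass. Library sizes in place of TMM factors gave that 7 of 22 genes of G1 control rose and 12 fell.

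Most targets of p53 rose by small amounts. 22 of 29 rose, beside 28.2% of all genes, and 4 fell, with a median of 0.33. MDM2, the ubiquitin ligase of p53, stood at 241, 229 and 251 CPM with shSCR and 335, 306 and 326 CPM with shBRG1 (0.42 ± 0.04). BTG2, an antiproliferative cofactor, rose by 1.66. GDF15, a secreted stress factor on the same list, fell by 1.41. Under the fit of all 3 groups, 11 of 29 p53 targets rose and 1 fell.

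Genes of sterol synthesis and uptake were lower. Cholesterol is built from acetyl-CoA by way of mevalonate, and SREBP2, encoded by SREBF2, is the factor that raises most of the pathway when sterols are low. 21 of 24 genes of the pathway fell and 0 rose, with a median of -0.52. HMGCS1, which makes HMG-CoA at an early step, stood at 106, 108 and 117 CPM with shSCR and 47.6, 46.6 and 43.7 CPM with shBRG1 (-1.26 ± 0.05). IDI1, the isopentenyl diphosphate isomerase, stood at 117, 111 and 125 and 58.6, 58.6 and 58.3 CPM (-1.01 ± 0.04). The 2 groups were apart in both. Of the enzymes that act on squalene or later, HSD17B7 stood at -1.06 on the log2 scale, MSMO1 at -1.03, SQLE at -0.61, LSS at -0.22 and DHCR7 at -0.22. 5 members were called, 3 without shSCR replicate 3 and 2 with library sizes in place of TMM factors, under which 19 fell. With the shMITF samples in the fit LSS and DHCR7 did not pass.

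Of 14 genes of sterol uptake and SREBP control, 9 fell and 3 rose. INSIG1, which holds SREBP in the endoplasmic reticulum, fell by 1.11, LPIN1, a phosphatidate phosphatase, by 1.13 and SREBF2 by 0.43. In the other direction NPC1, which lets cholesterol out of the lysosome, rose by 1.34 and SREBF1 by 0.38. The sterol element CACCCCAC was found in none of the 18 synthesis genes with a promoter in the RefSeq set. It was found in 3.65% of all tested genes with a promoter and in 2.79% of all promoters. At such low shares 18 genes are too few to show a difference. 14 of 19 genes of fatty acid synthesis fell. FASN, the fatty acid synthase, fell by 0.85, SCD, the stearoyl-CoA desaturase, by 0.77 and FABP7, a fatty acid binding protein of neural crest derivatives, by 1.84. In the fit of all 3 groups, 1 of 14 genes of sterol uptake and SREBP control rose and 8 fell. Of 19 genes of fatty acid synthesis in that fit, 0 rose and 8 fell. There SREBF2 and SREBF1 did not pass.

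Targets of the sterol-sensing LXR receptors went opposite ways. ABCA1, which exports cholesterol to lipoproteins, stood at 7.38, 6.85 and 8.11 CPM with shSCR and 39.6, 35.7 and 41.7 CPM with shBRG1, a log2 fold change of 2.38 ± 0.08. APOE, a carrier of that cholesterol, went from 165, 173 and 144 CPM to a mean of 27.5 CPM (-2.54 ± 0.05). One rose and the other fell by more than 5-fold. APOC1, a neighbour of APOE on chromosome 19, fell by 1.26, and NR1H2, the gene for one of the LXR receptors, rose by 0.80.

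Lysosomal genes were lower as well. 22 of 30 genes for lysosomal enzymes, membrane proteins and the proton pump fell and 3 rose (median -0.49). CACGTG, the core of the motif bound by the lysosomal regulator TFEB and by its relative MITF, was found in 8 of the 16 promoters of the list, in 7.26% of all promoters and in 12.2% of those of genes tested. The 60 bases around it are shown for 3 genes that hold it upstream of the start site and that changed differently, CTSD at chr11:1763942-1764001 (- strand), NEU1 at chr6:31862915-31862974 (- strand) and LAMP1 at chr13:113297179-113297238 (+ strand), from RefSeq on GRCh38.p14, with the motif in capitals.
CTSD: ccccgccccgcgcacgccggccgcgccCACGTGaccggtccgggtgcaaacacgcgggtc
NEU1: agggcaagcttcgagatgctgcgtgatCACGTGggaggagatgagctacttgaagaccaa
LAMP1: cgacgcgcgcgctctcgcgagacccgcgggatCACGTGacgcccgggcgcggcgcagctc
CTSD, the aspartic protease cathepsin D, stood at 2201, 2348 and 2028 CPM with shSCR and 1347, 1314 and 1309 CPM with shBRG1 (-0.73 ± 0.05). NEU1, a sialidase, fell by 0.48, while LAMP1, a major protein of the lysosomal membrane, did not pass the test (0.09 ± 0.04, adjusted p = 0.0765). The motif was thus present both in genes that fell and in one that did not pass the test. Cathepsin S (CTSS), which trims antigens for class II presentation, fell from a mean of 32.3 to 6.88 CPM (-2.23 ± 0.07). ASAH1, the acid ceramidase, fell by 1.10. CTSL, the cysteine protease cathepsin L, rose by 0.82. When the shMITF samples shared the fit NEU1 did not pass. With library sizes in place of TMM factors, 6 of 30 lysosomal genes rose and 21 fell.

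**Figure D3:**
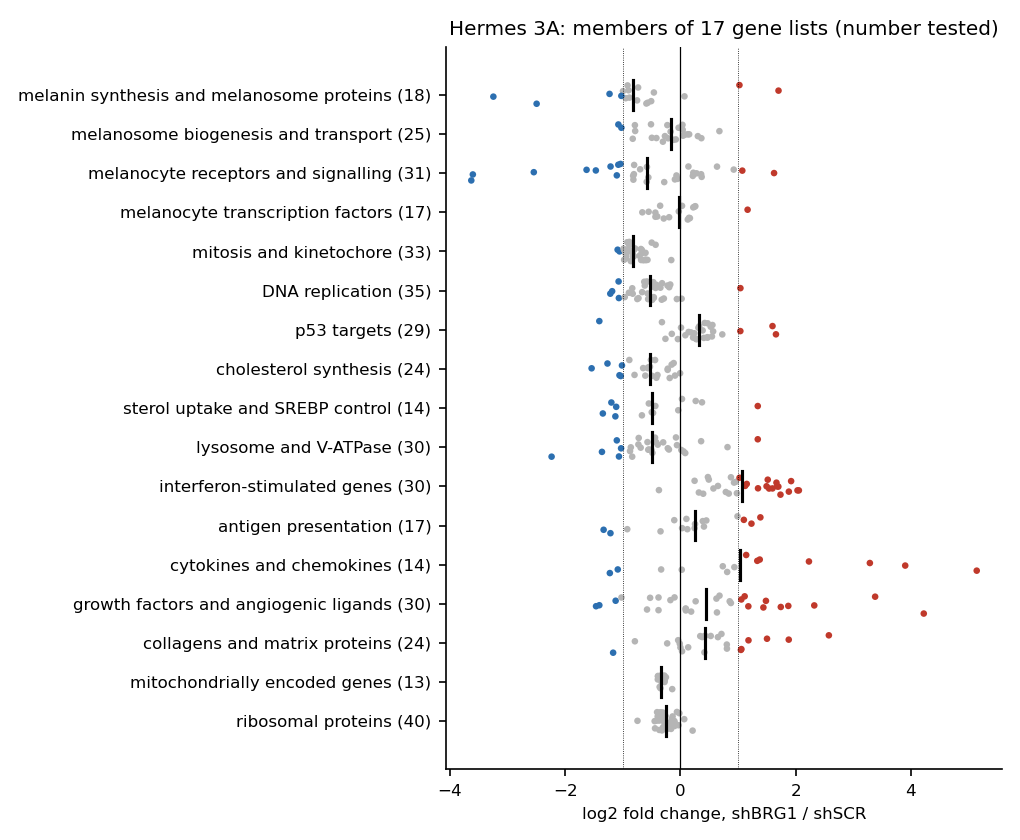
Log2 fold changes (shBRG1 over shSCR) of the members of 17 gene lists in Hermes 3A cells, one point per gene, with the number tested in brackets, a black bar at each median and dotted lines at 2-fold. Points in red were called up and points in blue called down. Interferon-stimulated genes lie to the right (median 1.08) and those of mitosis to the left (median -0.83).

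Interferon-stimulated genes rose almost without exception. These genes are switched on when interferons activate a complex that holds STAT2 and IRF9, and their products restrict viruses or sense viral RNA. 29 of 30 rose, 16 of them more than 2-fold, and BST2 fell by 0.37. The median was 1.08, against 0.01 over all genes. Interferon-activated factors bind repeats of GAAA. The search for 2 copies of GAAA with any 2 bases between them, on both strands, was chosen after the values had been seen. Stretches of 60 bases upstream of 4 genes that rose are shown because each holds it, with every match in capitals (2 copies of TTTC where it lies on the other strand), from RefSeq on GRCh38.p14: IFIT1 at chr10:89392495-89392554 (+ strand), IFIT3 at chr10:89327850-89327909 (+ strand), ISG15 at chr1:1013365-1013424 (+ strand) and IFI44L at chr1:78620350-78620409 (+ strand).
IFIT1: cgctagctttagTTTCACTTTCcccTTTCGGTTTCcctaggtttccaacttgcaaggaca
IFIT3: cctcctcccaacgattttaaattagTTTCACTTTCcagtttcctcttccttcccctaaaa
ISG15: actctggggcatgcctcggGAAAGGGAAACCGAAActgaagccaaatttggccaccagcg
IFI44L: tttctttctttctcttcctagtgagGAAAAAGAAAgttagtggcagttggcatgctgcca
Of the 24 members whose promoter was in the RefSeq set, 16 held it, against 3.57% of all promoters. It was found in 7.57% of up-regulated, 4.64% of down-regulated and 3.87% of all tested genes with a promoter, and the up-regulated genes include members of this list.

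Several antiviral effectors were among the members that rose more than 2-fold. IFIT1, which binds viral RNA that lacks a cap methyl group, stood at 184, 172 and 211 CPM with shSCR and 592, 612 and 612 CPM with shBRG1 (1.68 ± 0.05). ISG15, a ubiquitin-like protein, stood at 261, 259 and 245 and 739.6, 833 and 861 CPM (1.67 ± 0.05). MX1, a GTPase that blocks viral nucleocapsids, stood at 159.8, 147 and 163 and 568, 601 and 610.1 CPM (1.92 ± 0.04). All 3 were higher in each shBRG1 sample than in any shSCR sample. IFI44L rose by 2.06, OASL by 2.03, and the RNA sensors RIGI and IFIH1 (MDA5) by 1.88 and 1.52. The transcription factors rose by smaller amounts, STAT2 by 0.40, IRF9 by 0.32 and IRF7 by 0.96. Of the interferons, IFNB1 had 2, 3 and 5 counts with shSCR and 1, 7 and 5 counts with shBRG1, and IFNE had 0, 0 and 4 and 5, 13 and 5 counts. Both were under the filter on low counts and were not tested. Under the fit of all 3 groups, 17 of 30 interferon-stimulated genes rose and 0 fell. There ISG15 and IRF9 did not pass.

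Genes of antigen presentation moved both ways. Of 17 tested, 10 rose and 4 fell. NLRC5, the activator of class I genes, rose by 1.39, PSMB9, a subunit of the immunoproteasome, by 1.23, TAP1, a peptide transporter, by 0.99 and TAPBP (tapasin) by 1.10. B2M and HLA-B rose by 0.25 and 0.39. The 4 that fell belong to class II or to its loading, HLA-DMA by 1.33, HLA-DPA1 by 1.21, HLA-DMB by 0.92 and HLA-DPB1 by 0.34, of which HLA-DMB no longer passed without shBRG1 replicate 2, without shSCR replicate 3 or with DESeq2. HLA genes are near-identical in part, and how the counting divided their reads is not given in the sources used here. With the shMITF samples in the fit, 6 of 17 genes of antigen presentation rose and 1 fell. There B2M, HLA-B, HLA-DPA1, HLA-DMB and HLA-DPB1 did not pass.

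**Figure D4:**
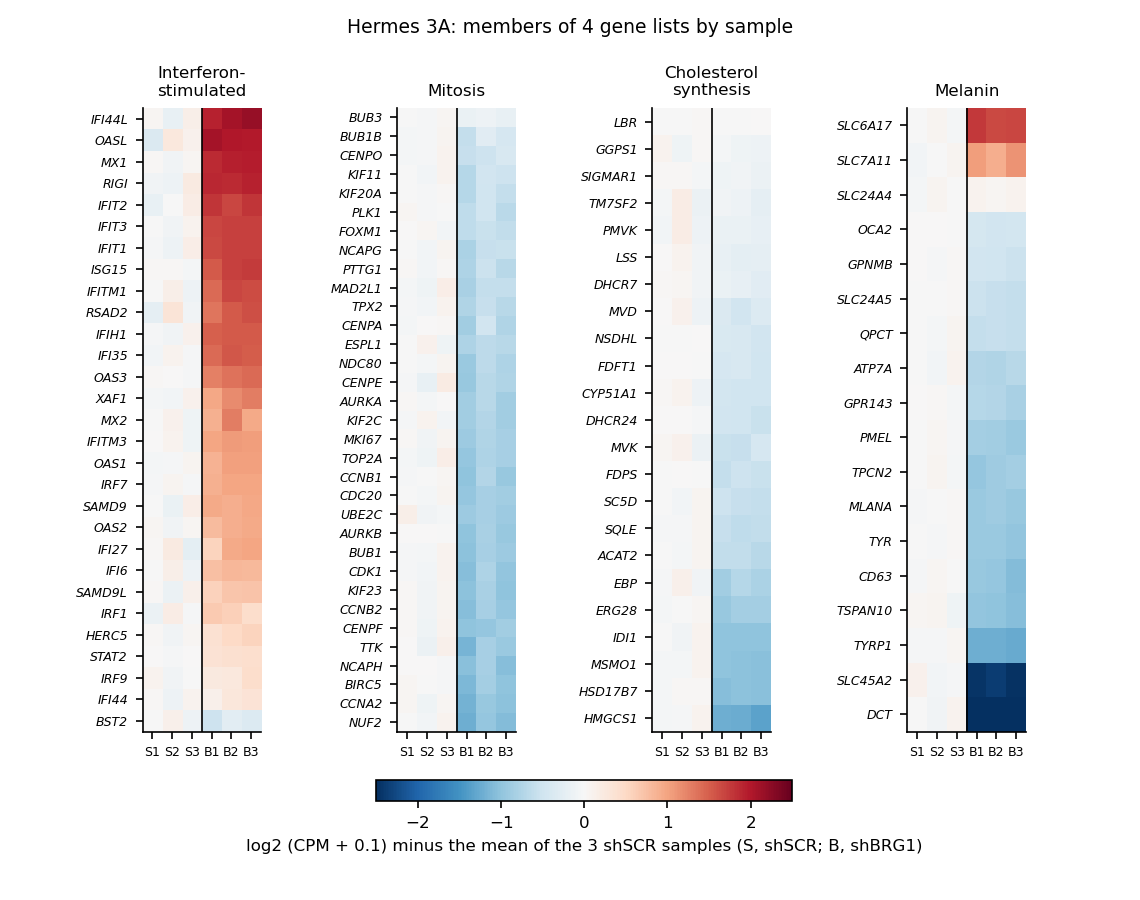
Expression of members of 4 gene lists in each Hermes 3A sample (S1 to S3, shSCR; B1 to B3, shBRG1), as log2 (CPM + 0.1) minus the mean of the 3 shSCR samples. Columns B1 to B3 are red for most interferon-stimulated genes, and blue for mitosis, cholesterol synthesis and most melanin genes, with DCT the darkest, past the end of the colour scale, then SLC45A2, and with SLC6A17 and SLC7A11 red.

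Secreted signals were among the genes that rose most. IL6, the interleukin that acts through STAT3 (chr7:22725884-22732002, GRCh38), had 87, 54 and 74 counts with shSCR and 2826, 3573 and 2699 counts with shBRG1, or 1.77, 1.44 and 1.52 and 55.1, 56.1 and 57.0 CPM. Its log2 fold change was 5.14 ± 0.08, 35.3-fold, the largest rise among genes with at least 1000 counts. Of 30 cytokines and chemokines listed, 14 were expressed enough to be tested, of which 10 rose, 3 fell and IL11 did not pass. Genes nearly silent with shSCR entered the test only where they were higher with shBRG1, so that these numbers lean toward rises. Where all samples had to reach 10 counts, 7 of 10 rose and 2 fell. Without a filter on low counts, 10 of 25 rose and 4 fell. With all 3 groups fitted together, 8 of 15 rose and 1 fell. CXCL12, the ligand of CXCR4, had 12, 6 and 14 and 142, 106 and 122 counts. CXCL11 and CXCL10, ligands of CXCR3 that interferons induce, had 1, 0 and 6 and 45, 42 and 42, and 13, 6 and 5 and 41, 64 and 33 counts. In each of these the lowest shBRG1 count was above the highest shSCR count. In CPM the groups did not overlap for 971 of all 996 up-regulated genes. CXCL8 rose by 1.14, LIF, a relative of IL6, by 1.38 and CSF1, the macrophage growth factor, by 1.33. IL33, an alarmin, fell by 1.09.

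Growth factors rose more often than they fell. Of 30 growth factors and angiogenic ligands, 15 rose and 7 fell, and 10 (33.3%) were up-regulated. Over all genes 28.2% rose, 28.6% fell and 5.78% were up-regulated. Where all samples had to reach 10 counts, 14 of 26 rose and 7 fell, and 7 were up-regulated. INHBA, the subunit of activin A, stood at 4.43, 5.33 and 5.61 CPM with shSCR and 54.9, 50.3 and 54.6 CPM with shBRG1 (3.38 ± 0.08). EREG, an EGF receptor ligand, had 13, 6 and 13 and 50, 81 and 62 counts (2.32 ± 0.31). HGF, the ligand of MET, had 1, 1 and 0 and 11, 29 and 13 counts. FGF7 rose by 1.87, BDNF by 1.48, VEGFA by 0.68 and KITLG, the gene for stem cell factor, by 0.88. CCN3, a matricellular protein of melanocytes, rose by 1.74, whereas the related CCN1 fell by 0.52. EGF fell by 1.46. In the fit of all 3 groups, 9 of 30 growth factors and angiogenic ligands rose and 2 fell. There CCN1 and EGF did not pass.

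Genes of the extracellular matrix rose more often than they fell. Of 24 collagens and matrix proteins 16 rose and 3 fell (median 0.42). THBS1, the antiangiogenic thrombospondin, stood at 8.91, 10.9 and 9.75 CPM with shSCR and 63.4, 55.0 and 57.1 CPM with shBRG1 (2.58 ± 0.07). TGFBI, a secreted protein induced by TGF-beta, rose by 1.88, fibronectin (FN1) by 0.71 and tenascin C (TNC), which no longer passed without shBRG1 replicate 2, by 1.05, and COL6A3 fell by 1.17. The summed fibroblast markers, several of them collagens, were not higher with shBRG1 (given above). Of 26 proteases and inhibitors of the matrix 12 rose and 5 fell. ADAMTS5, an aggrecanase, rose by 2.10, TIMP3, an inhibitor bound to the matrix, by 1.32 and MMP2 by 0.61. SERPINA1, the inhibitor of neutrophil elastase, fell from 34, 22 and 29 to 2, 4 and 4 counts. IGFBP2 fell by 1.67 and IGFBP3, another carrier of insulin-like growth factors, rose by 1.00. With all 3 groups fitted together, 6 of 24 collagens and matrix proteins rose and 1 fell and 8 of 27 proteases and inhibitors rose and 1 fell. There FN1, TNC, MMP2 and IGFBP3 did not pass.

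Adhesion and guidance molecules moved both ways. 14 of 28 integrins and laminins rose and 8 fell, with ITGA2 at 1.00, LAMB1 at 0.93, ITGB3 at -0.96 and LAMB3 at -1.33. MCAM, the melanoma cell adhesion molecule, fell from a mean of 192 to 50.1 CPM (-1.94 ± 0.04). CDH11, a mesenchymal cadherin, had 30, 7 and 34 counts with shSCR and 113, 155 and 104 with shBRG1. CDH2 (N-cadherin) rose by 0.96 and CDH1 (E-cadherin) fell by 0.42. Of 38 semaphorins, ephrins, netrins and their receptors 16 rose, 8 of them more than 2-fold, and 11 fell, 5 of them more than 2-fold. Over all genes 28.2% rose and 28.6% fell, so that the 11 falls were near the background. Of these 38 genes 21.1% were up-regulated and 13.2% down-regulated, against 5.78% and 3.47% of all genes. SEMA3A, a repellent of axons, fell by 1.68 and PLXNC1, a plexin of melanocytes, by 1.03. EFNA1, an ephrin ligand, rose by 1.75, NTN1 (netrin 1) by 1.63 and SEMA3D by 1.31. Of the regulators of the epithelial to mesenchymal transition, SNAI1 fell by 1.52, TWIST1 fell by 0.61 and SNAI2 rose by 0.17. When the shMITF samples shared the fit, 10 of 28 integrins and laminins rose and 4 fell and 9 of 38 semaphorins, ephrins, netrins and receptors rose and 6 fell. There CDH1, SEMA3D, TWIST1 and SNAI2 did not pass.

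Signalling lists moved to different extents. Among targets of the MAP kinase pathway that feed back on it or respond early, 8 of 21 rose and 10 fell. EGR1 and EGR3, early response factors, fell by 1.08 and 1.22, DUSP6, a phosphatase of ERK, fell by 0.79, and SPRED3 rose by 1.24. Of 13 AP-1 factors 8 rose and 3 fell, with FOSL2 at 0.75, JUND at 0.87, ATF3 at 0.99 and BATF2, a factor that interferons induce, at 2.12. The AP-1 motif TGACTCA was found in 6.8% of up-regulated and 8.51% of down-regulated genes with a promoter, against 5.08% of all tested. In the TGF-beta and BMP pathway 13 of 27 rose and 8 fell. ID1 and ID3, targets of BMP signalling, rose by 1.06 and 1.51, whereas ID2 and ID4 fell by 0.38 and 0.59. GREM1, an antagonist of BMPs, had 5, 1 and 8 counts with shSCR and 25, 35 and 37 with shBRG1. TGFBR2, the type II TGF-beta receptor, fell by 1.21. In the WNT pathway 8 of 22 rose and 8 fell, with the inhibitor DKK1 at 1.27. With 28.2% of all genes rising and 28.6% falling, these counts were near the background. So was the count of 8 of 21 MAP kinase targets that rose. 15 of 21 targets of YAP and SRF rose and 4 fell, among them the contractile proteins TPM1 by 1.28, ACTA2 by 1.17 and MYL9 by 0.68. Under the fit of all 3 groups, 3 of 21 MAP kinase targets rose and 2 fell, 5 of 13 AP-1 factors rose and 0 fell, 8 of 27 TGF-beta and BMP genes rose and 4 fell, 4 of 23 WNT genes rose and 1 fell and 5 of 21 YAP and SRF targets rose and 1 fell. There EGR1, EGR3, ID1, ID2 and MYL9 did not pass.

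Stress and energy genes changed little on balance. Of 24 genes of the ATF4 response 10 rose and 9 fell (median 0.01), with ASNS, the asparagine synthetase, at 0.72 and DDIT3 (CHOP) at -0.30. Of 26 genes of glycolysis and hypoxia 8 rose and 10 fell (median -0.02), with SLC16A3, a lactate exporter, at 1.21 and EGLN3, an oxygen sensor, at -1.23. Of 16 genes of the BCL2 family 6 rose and 7 fell (median -0.12). Among them the antiapoptotic BCL2 and BCL2A1 fell by 1.11 and 0.81, and the proapoptotic BAX and BAK1 rose by 0.47 and 0.63. The list as a whole showed no shift to one side. With the shMITF samples in the fit, 7 of 24 ATF4 response genes rose and 4 fell. In that fit 1 of 26 genes of glycolysis and hypoxia rose and 4 fell, and 3 of 16 genes of the BCL2 family rose and 3 fell. There ASNS, DDIT3 and EGLN3 did not pass.

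A pair of imprinted genes went from nearly silent to expressed. PEG3, a zinc finger gene expressed from the paternal allele (chr19:56810077-56840728, GRCh38), had 0 counts in all 3 shSCR samples and 163, 137 and 114 counts in the shBRG1 samples. Against a floor of 3 counts in each shSCR sample its level, scaled to library sizes alone, was at least 41.1-fold higher. PEG3 shares its first exons with ZIM2, and how the counting divided such reads is not given in the sources used here. MEG3, a maternally expressed long noncoding RNA (chr14:100779410-100861031, GRCh38), had 19, 12 and 15 and 344, 339 and 310 counts (4.18 ± 0.19). The other 13 imprinted genes tested behaved unevenly, with GRB10, an adaptor of the insulin receptor, up by 0.70, NAP1L5 down by 0.60 and SNRPN not passing the test (0.23 ± 0.19, adjusted p = 0.329). Of 25 cancer-testis genes listed, which are silent in most adult tissues, 1 passed the filter on low counts, SSX1, which fell by 1.38. In the fit of all 3 groups, 4 of 17 imprinted genes rose and 1 fell.

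Several of the most changed well-counted genes belong to none of these lists. SPP1 (osteopontin), a secreted phosphoprotein, stood at 369.9, 373 and 413 CPM with shSCR and 76.0, 87.1 and 80.9 CPM with shBRG1 (-2.24 ± 0.05). RPN2, a subunit of the oligosaccharyltransferase of the endoplasmic reticulum, stood at 521, 520.2 and 533 and 118, 133 and 125 CPM (-2.07 ± 0.04). FSTL1, a secreted follistatin-like protein, stood at 232, 230.1 and 234 and 54.8, 57.2 and 57.9 CPM (-2.03 ± 0.04). Of the shSCR level 21.1% was left for SPP1, 23.9% for RPN2 and 24.4% for FSTL1. PLA1A, a phospholipase, fell by 2.37, BCAN, the proteoglycan brevican, by 2.71, and HAS2, a hyaluronan synthase, by 2.71. On the other side NNMT, the nicotinamide N-methyltransferase, stood at 20.4, 22.8 and 20.8 CPM with shSCR and 185, 205 and 202 CPM with shBRG1 (3.21 ± 0.05). PCSK1 and FURIN, proteases that process hormone precursors, rose by 2.84 and 2.14. STC1 (stanniocalcin 1) rose by 2.44, GBP1, an interferon-induced GTPase, by 2.34 and the homeobox gene DLX2 by 2.21. The semaphorin SEMA6B rose by 2.67.

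To see where this response differs from that of a melanoma line, the difference between the effects of shBRG1 in 501Mel and in Hermes 3A cells was tested in 1 fit of 12 samples. SMARCA4 fell by a like amount in 501Mel cells (log2 fold change -2.36), and the difference, -0.01 ± 0.07 (SE, adjusted p = 0.964), did not pass the test. Of 21697 genes, the effect was higher in 501Mel for 12% and lower for 14.9%, at an adjusted p under 0.05 and more than a 2-fold difference. Of the 20514 genes tested in 501Mel cells alone, 3571 were down-regulated and 4453 up-regulated. Among the 16213 genes tested in both lines, these were 3089 and 2365. Of the 535 genes down-regulated in Hermes 3A cells and tested in both lines, 337 (63.0%) were also down-regulated in 501Mel, 10.9% of those 3089. Another 36 (6.73%) were up-regulated there. Of the 780 up-regulated in Hermes 3A cells and tested in both, 350 (44.9%) were also up-regulated in 501Mel, 14.8% of those 2365. Another 82 (10.5%) were down-regulated there.

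Pigment genes and their factors fell further in 501Mel cells. MITF changed by -1.55 there against -0.43 in Hermes 3A cells (difference -1.15 ± 0.08, within 2-fold at -0.87 with library sizes in place of TMM factors and at -0.95 where all samples had to reach 10 counts), and SOX10 by -2.44 against -0.40 (difference -2.07 ± 0.07). TYR differed by -3.11 ± 0.07, PMEL by -2.30 ± 0.07 and DCT by -1.83 ± 0.32. Of 18 genes for melanin and melanosome proteins 15 had a lower effect in 501Mel. Of 30 interferon-stimulated genes tested, 23 had a lower effect in 501Mel and 1 a higher one. A lower effect need not be a fall. In 501Mel cells alone 28 were tested, of which 11 were down-regulated and 2 up-regulated, with a median change of -0.53. IFIT1 changed by -1.61 in 501Mel cells (difference -3.32 ± 0.11), MX1 by -1.62 (-3.57 ± 0.11) and ISG15 by 0.53 (-1.17 ± 0.09, -0.89 and -0.97 under the same settings). The one gene with a higher effect, IFI44L, had 0 counts in the 501Mel shSCR1 samples and a mean of 0.358 CPM with shBRG1 there, so that the fitted size of its difference depends on the prior count.

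Cell division and sterol synthesis differed less than pigment and interferon-stimulated genes. 7 of 33 genes of mitosis and 2 of 24 of cholesterol synthesis had a lower effect in 501Mel, beside 14.9% of all genes. None had a higher one. The median differences were -0.50 and -0.25. In 501Mel cells alone 22 of the 33 mitosis genes (median -1.17) and 10 of the 24 cholesterol genes (median -0.77) were down-regulated. CDK1 differed by 0.46 ± 0.09, TOP2A by -0.92 ± 0.09 and HMGCS1 by 0.82 ± 0.07, all within 2-fold in this fit. CDK1 and HMGCS1 were thus opposite in sign to the medians of their lists. HMGCS1 passed 2-fold with library sizes (1.10) and TOP2A without Hermes 3A shSCR replicate 3 (-1.04). Of the secreted factors, INHBA changed by 1.08 in 501Mel cells (difference -2.33 ± 0.16) and CXCL8 by 1.82 (difference 0.65 ± 0.10, within 2-fold). IL6 was far lower in 501Mel cells, at a mean of 0.0317 CPM with shSCR1 and 1.73 CPM with shBRG1, and its difference did not pass the test (0.28 ± 0.50, adjusted p = 0.676). Without 501Mel shSCR1 replicate 2 that difference became 4.16 and passed. MEG3 changed by 0.95 in 501Mel cells (difference -3.25 ± 0.42), and APOE by -3.42 (difference -0.91 ± 0.07, within 2-fold).

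**Figure D5:**
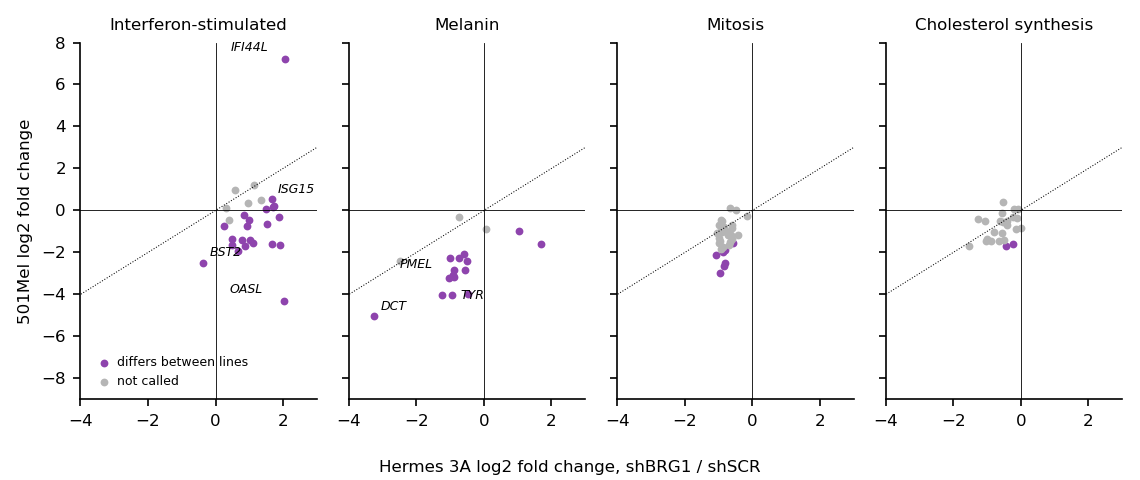
Log2 fold changes with shBRG1 in Hermes 3A cells (horizontal) and in 501Mel cells (vertical) for members of 4 gene lists tested in both, with purple points where the difference between the lines was called and a dotted line where both are equal. Interferon-stimulated genes lie mostly right of 0 and below 0, and melanin genes mostly below the dotted line.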

How the data were processed

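Total RNA was depleted of ribosomal RNA and normalised with a duplex-specific nuclease, which lowers abundant sequences and may compress differences of the most abundant transcripts, before sequencing. The tables deposited by the authors, 1 per sample, hold whole read counts for each Ensembl gene that were not normalised, made after alignment to hg19 with TopHat 1.4.1 and Bowtie 0.12.7 and base calling with CASAVA 1.8, per the submitters' processing notes. The counting program, its annotation and the use of strand are not given in the sources used here, so that reads of overlapping or antisense genes cannot be told apart.

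From these counts, 42224 gene IDs were listed for Hermes 3A cells with shSCR or shBRG1, and 38750 had a symbol in GENCODE 29 (Ensembl 94, GRCh38), whose coordinates are given and which is not the authors' build. edgeR 4.0.16 (R 4.3.3) was used with its filterByExpr filter, TMM factors and robust quasi-likelihood test, two-sided, with Benjamini-Hochberg adjustment over all genes tested. A call needed an adjusted p under 0.05 and more than a 2-fold change. The same tool fitted 12 samples for the difference between lines. The group and replicate of each sample were taken from its title. DESeq2 1.42.0, the other filters and scalings, a replicate block, a fit with the shMITF samples and leaving out each sample were the alternatives. The steps were tested on simulated data: at a log2 fold change of 1.5, 200 of 200 changed genes of at least 50 counts were recovered with 2 false calls for shBRG1 against shSCR (16894 genes). The simulated spread was taken from the fit itself, and far more genes changed in the data. The median change of called genes was smaller, 1.38 for rises and 1.33 for falls. The simulation therefore checks the steps and does not give the error rate of the calls. The 6 Hermes 3A samples held 39036855 to 61804675 counts, so that depth limits genes of a few counts most, and a floor of 3 counts per library was set under genes at 0.

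Named genes were SMARCA4, SMARCA2, MITF and SOX10. To them were added the 12 largest rises and falls among called genes with a mean of at least 100 counts and no overlap of groups, and the 10 with at least 1000 counts. In each of 45 gene lists up to 5 called members each way and the first 3 members were taken. Other list members named, IFNB1 and IFNE, and the families in the closing section were chosen after their values were seen. The members and the lists were chosen with earlier results of these data known. Promoters (250 bases before to 50 after the start site) were from RefSeq on GRCh38.p14 and motifs were counted on both strands. Replicates with the same number did not deviate together across the groups (correlations of 0.29, 0.05 and -0.03), and the numbers were not used as a pairing. A few members of the lists are counted but not reported here by name. Samples with shMITF or shSCR2 were otherwise not used here.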

Additional observations from a re-analysis of the deposited data

Results flagged for a closer look

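The effect of shBRG1 was compared between 501Mel and Hermes 3A cells for 19 genes chosen with earlier results of these data known. It differed for 11 of them, by the interaction term of the edgeR fit of 12 samples (adjusted p under 0.05 and more than 2-fold). Over all 21697 genes in that fit the effect was higher in 501Mel for 12% and lower for 14.9%. The share among chosen genes does not stand for all genes. All values are the log2 effect in 501Mel minus that in Hermes 3A cells. The differences were -1.15 for MITF, -2.07 for SOX10, -1.83 for DCT, -3.11 for TYR and -2.30 for PMEL, all with a fall in both lines. Among interferon-stimulated genes they were -3.32 for IFIT1 and -3.57 for MX1, which rose in Hermes 3A cells and fell in 501Mel cells, and -1.17 for ISG15, which rose in both. The value for IFI44L was 4.99, but it had 0 counts in the 501Mel control samples and the size depends on the prior count. INHBA differed by -2.33 and MEG3 by -3.25, both with a smaller rise in 501Mel cells. The differences of MITF and ISG15 came within 2-fold with library sizes in place of TMM factors (-0.87 and -0.89) and where all samples had to reach 10 counts (-0.95 and -0.97).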

How the results depend on the processing

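In Hermes 3A cells the 996 up- and 598 down-regulated genes became 971 and 591 with DESeq2, 722 and 446 with the shMITF samples in the fit, and 1210 and 677 without a filter. Where all samples had to reach 10 counts, 634 were up-regulated, since fewer genes were tested. A test against 2-fold (glmTreat) left 358 and 244, and the adjusted p alone gave 4862 and 4934. With library sizes in place of TMM factors 1231 rose and 467 fell by more than 2-fold, so that the split shifted toward rises. Leaving out each sample in turn gave 975 to 1090 up- and 600.0 to 661 down-regulated genes. For the difference between lines, 2610 higher and 3224 lower became 1709 and 1851 under that stricter filter, 3696 and 2281 with library sizes, and 2387 to 2879 and 2816 to 3380 when leaving out each sample. A replicate block gave 1014 and 599 calls in Hermes 3A cells and 2525 and 3202 for the difference, although same-numbered samples did not deviate together, and not every sample correlated best with its own number.

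Of the 205 named genes tested, 2 lost an adjusted p under 0.05 with DESeq2, 1 with library sizes, 0 with the block, at most 4 without any 1 sample and 44 with the shMITF samples in the fit, where the coefficient of variation was 17.8%. None reversed its direction under these settings. With library sizes PAX3 (0.13) and LAMP1 (0.19) passed as rising. With 1 hairpin and replicates of unstated origin, the values describe these samples. Genes with few counts in the higher group are the least certain.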

Other observations

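Groups of neuronal genes that no list held also rose in Hermes 3A cells, and they were chosen after their values were seen. The protocadherin beta genes, a cluster of cell surface proteins that give neurons their identity, rose in 11 of 13 tested, 10 of them more than 2-fold. Their median was 1.53 against 0.01 over all genes, of which 5.78% were called up. Their mean counts lay between 14 and 341. Of 4618 genes tested with a mean under 100 counts in the higher group, 534 were called up. Genes nearly silent with shSCR entered the test only where they were higher with shBRG1. Numbers for weakly counted families therefore lean toward rises. PCDHB2 had 168, 119 and 171 counts with shSCR and 567, 559 and 466 with shBRG1 (1.55 ± 0.11), and PCDHB5 had 15, 8 and 13 and 100, 77 and 49 counts (2.39 ± 0.31). In both the groups were apart. Of 4 protocadherin alpha genes tested 2 were up-regulated, and of 20 protocadherin gamma genes 1. Genes of one cluster are similar in sequence, and those of the alpha and gamma clusters share their last exons, so that the division of reads among them is uncertain. The effect on 8 of the protocadherin beta genes was lower in 501Mel cells.

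The intermediate filaments of neurons rose as well. INA, the internexin, had 56, 30 and 69 counts with shSCR and 767, 1010 and 677 with shBRG1 (3.72 ± 0.13), NEFH 91, 56 and 101 and 297, 358 and 259 (1.63 ± 0.14) and NEFM 690, 557 and 697 and 1592, 1734 and 1378 (1.02 ± 0.07). Of 7 NMDA receptor subunits tested 5 rose. GRIN3B had 31, 29 and 30 and 160, 149 and 118 counts (1.98 ± 0.20) and GRIN2C 77, 66 and 56 and 229, 257 and 189 (1.49 ± 0.16). DRAXIN, a secreted repellent of axons, had 21, 31 and 23 and 445, 386 and 352 counts (3.72 ± 0.19). Of 8 voltage-gated sodium channel genes tested 4 rose and 2 fell.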
